A study of Mus musculus with 12 samples.

Results

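Gdf15 and 9 other genes of the integrated stress response were followed here through the histone mark H3K4me3 in adult mouse cardiomyocytes (CMs). The genes were Gdf15, Fgf21, Atf4, Atf5, Ddit3, Trib3, Asns, Psat1, Phgdh and Mthfd2. All peaks that the deposited table names for one of them were taken, which gave 9 of the 15848 peaks of the series. Each of 9 genes had 1 peak, and Fgf21 had none. The genes were selected on earlier results for the same normalized counts of CtrlCre and Cpt1bcKO libraries, so the genotype values of these 9 peaks are a description, and no support is drawn from a test of them.

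H3K4me3, the trimethylated form of lysine 4 on histone H3, was measured by ChIP–seq, the sequencing of DNA pulled down with an antibody to the mark, in CM nuclei that had been sorted from frozen ventricles by the nuclear marker PCM1. There were 3 H3K4me3 libraries from CtrlCre mice (αMHC-Cre with wild-type Cpt1b) and 3 from Cpt1bcKO mice (αMHC-Cre with both Cpt1b alleles floxed). Cpt1b encodes the muscle form of the enzyme that lets long-chain fatty acids into mitochondria, and the comparison asks how H3K4me3 differs once CMs can no longer burn them. All mice carried the αMHC-Cre transgene, which is driven by the promoter of the CM myosin gene Myh6 and acts from embryonic stages, so the Cpt1bcKO CMs had lost Cpt1b before birth. The sources give the CMs as adult, with no exact age for these libraries, and do not say whether a library came from 1 mouse or from several. Where libraries did not come from separate mice, the spread between them is technical.

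H3K4me3 marks the promoters of active genes, usually around and just downstream of the first transcribed base. In the integrated stress response, kinases that sense misfolded proteins, lack of amino acids or failing mitochondria phosphorylate the translation factor eIF2. General translation then slows, while the transcription factor ATF4 is translated more. ATF4 and its partners switch on genes for amino acid supply, one-carbon metabolism and the secreted hormones GDF15 and FGF21. GDF15 acts on the brainstem to lower appetite and is widely used as a blood marker of heart failure and of mitochondrial disease. In heart muscle, defects of mitochondrial function are a known trigger of this response.

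ATF4 binds DNA with C/EBP factors at a composite site, the C/EBP–ATF response element, searched here on both strands as TGATGNAAN. A relaxed form, TGNTGNAAN, was added after the sequences had been seen and includes every match of the first form. Promoter sequences came from RefSeq on GRCm38.p6, the build of the peaks, and all 10 genes matched an entry, with 13 promoters among them. In the 250 bases before the start, TGATGNAAN was present in 3.44% of 32851 mouse promoters and TGNTGNAAN in 12.7%. The first form was found before the starts of Fgf21 and Asns, and the relaxed form also in those of Trib3, Psat1 and Phgdh. Stretches that hold these letters are printed 5′ to 3′ on the strand of the gene. A match is in capitals (the first form where there is one), as is the TATA box (TATAAA) in Fgf21. Only the 250 bases before the start were searched here, so the closeness of these matches to the start follows from the search.
Fgf21, chr7:45615491-45615650, minus strand, up to the base before the start: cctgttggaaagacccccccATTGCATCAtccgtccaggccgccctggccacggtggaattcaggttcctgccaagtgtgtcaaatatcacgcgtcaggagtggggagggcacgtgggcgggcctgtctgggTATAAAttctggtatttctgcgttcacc
Asns, chr6:7693215-7693244, minus strand: gtcccagccacaTGATGAAACttcccgcac
Trib3, chr2:152344061-152344120, minus strand, up to the base before the start: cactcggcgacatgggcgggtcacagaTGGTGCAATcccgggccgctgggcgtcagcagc
Psat1, chr19:15925160-15925219, minus strand: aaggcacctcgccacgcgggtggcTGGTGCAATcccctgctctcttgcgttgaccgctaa

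The Fgf21 match in capitals lies 140 to 132 bases before the start, on the opposite strand, where it reads TGATGCAAT. A second match, of the relaxed form alone, lies 158 to 150 bases before the start and is left in lower case. The Asns match lies 23 to 15 bases before the RefSeq start, and in an exon of a longer GENCODE transcript. The relaxed matches lie 33 to 25 bases before the start in Trib3 and 136 to 128 in Psat1, with the same 9 letters in both.

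Neither form was found in the 250 bases before either RefSeq start of Gdf15. The promoter of the upstream start is printed because the H3K4me3 peak of Gdf15 does not reach it, and 200 bases of the intron around the summit of that peak are printed because the mark was highest there.
Gdf15, promoter, chr8:70632457-70632706, minus strand, no match: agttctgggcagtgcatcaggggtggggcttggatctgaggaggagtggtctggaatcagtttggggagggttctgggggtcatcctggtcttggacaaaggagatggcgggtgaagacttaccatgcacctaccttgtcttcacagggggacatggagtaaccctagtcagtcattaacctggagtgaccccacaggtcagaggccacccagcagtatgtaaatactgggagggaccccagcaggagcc
Gdf15, peak summit, chr8:70631051-70631250, minus strand, no match: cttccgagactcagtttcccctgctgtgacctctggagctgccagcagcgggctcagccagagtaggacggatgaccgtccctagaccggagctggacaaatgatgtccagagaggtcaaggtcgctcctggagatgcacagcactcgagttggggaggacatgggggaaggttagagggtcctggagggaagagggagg

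Inside the peaks, which are much longer than these windows, TGATGNAAN was found 8 times, in 6 of the 9 peaks. By comparison, 2294 of 15039 peaks with enough signal to be tested (15.3%) held it, and its density was 0.371 matches per kb in the 9 peaks and 0.0947 per kb over all tested peaks. The peaks of Gdf15, Atf4 and Atf5 had none. Ddit3 had 3 in its long peak, of which the most upstream lay 283 bases before the start of its first transcript. The matches of Trib3 and Asns lay within 150 bases of the peak summit, as did one in 1.52% of all tested peaks. For each gene except Asns, whose match is the one above, 1 match is printed with 10 bases either side, on the strand of the gene. For Ddit3 this is the most upstream of the 3. The letters in capitals are alike because they were searched for.
Ddit3, chr10:127290481-127290509, plus strand: gttgccaaacATTGCATCAtccccgcccc
Trib3, chr2:152344029-152344057, minus strand: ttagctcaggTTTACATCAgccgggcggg
Phgdh, chr3:98339208-98339236, minus strand: gccttttgtcTGATGCAAGaccttggcgc
Mthfd2, chr6:83317169-83317197, minus strand: tgctgcagtcTGATGAAATctgtgagccg
Psat1, chr19:15923825-15923853, minus strand: actattgctgTGATGAAACactgtggcca
A match of letters is a description of the sequence and does not show that a factor binds there. The genes were listed as genes of this response, so a higher density than over all tested peaks is not a finding of these data.

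Gdf15 was the gene of the 10 in which the genotypes lay far apart, with higher normalized H3K4me3 counts in Cpt1bcKO CMs. Its peak, chr8:70629464-70631681, had normalized counts of 29, 35 and 40 in CtrlCre replicates 1 to 3 and of 157, 149 and 135 in Cpt1bcKO replicates 1 to 3. The genotypes did not overlap, and the lowest Cpt1bcKO library stood at 3.38 times the highest CtrlCre library. The means were 34.7 ± 5.5 and 147 ± 11 (SD, n = 3 each), a log2 difference of 2.06 with a standard error (SE) of 0.17, or 4.18-fold. Log2 differences are given as Cpt1bcKO minus CtrlCre on the log2(value + 1) scale throughout. They are relative to the other peaks of a library, since the normalization hides any change shared by all peaks. By western blot of sorted CM nuclei, the paper reports a lower total level of H3K4me3 in Cpt1bcKO mice.

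Behind these values stood 35, 15 and 43 reads in the CtrlCre libraries and 139, 229 and 188 in the Cpt1bcKO libraries, recovered from the deposited table. Counting error alone was 25.8% in the CtrlCre library with 15 reads, which was also the shallowest library of the series. The log2 difference was the 12th highest of all 15039 tested peaks and the 3rd highest of the 11331 that carry a gene name. Per kb of peak, the control level of Gdf15 was 15.6, at the 2.69th percentile of tested peaks, and its Cpt1bcKO level was 66.3, at the 55.3rd percentile. Among the 9 peaks, Gdf15 had the lowest level per kb in CtrlCre CMs and the third highest in Cpt1bcKO CMs.

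The Gdf15 peak lay wholly inside the gene and held neither of its annotated starts. Its upstream edge was 414 bases downstream of the nearer start and 775 bases downstream of the farther one. Exons made up 47.8% of the peak and the intron 52.2%, and its summit fell in the intron, 944 bases downstream of the nearer start. Of 12330 tested peaks whose gene identifier was found in the annotation, some of them with no gene name in the table, 8.34% held no start of their gene. The promoter printed above is poor in CpG, with an observed over expected ratio of 0.05 against a median of 0.37 over all promoters, while that of the start nearer the peak had a ratio of 0.31, at the 43.4th percentile. The bases around the summit had a ratio of 0.37, at the 9.77th percentile of tested peaks.

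**Figure D1:**
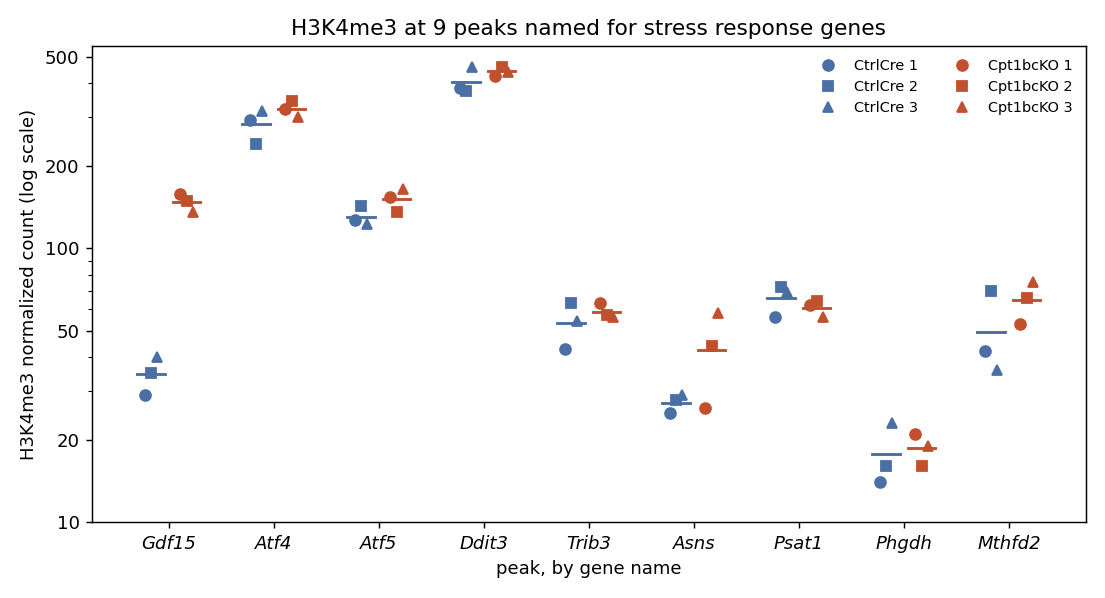
Normalized H3K4me3 counts (log scale) of the 9 peaks, with a point for each library, its shape giving the replicate number, and a line at the mean of each genotype. In Gdf15 the CtrlCre libraries sit between 29 and 40 and the Cpt1bcKO libraries between 135 and 157, while the genotypes overlap in the other 8 peaks.

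The peaks on either side of Gdf15 did not follow it. Ssbp4, on one side, had 116, 107 and 133 in CtrlCre libraries and 110, 92 and 134 in Cpt1bcKO libraries, a log2 difference of -0.094 (SE 0.14). Pgpep1, on the other side and 26387 bases away, had 140, 119 and 154 against 161, 152 and 125, a log2 difference of 0.084 (SE 0.13). In both peaks the genotypes overlapped.

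Fgf21, the other secreted hormone of the response, had no H3K4me3 peak in either genotype. The nearest peak was 13107 bases from its start and carried the name of Rasip1, a gene of blood vessel formation. It had 12, 28 and 25 in CtrlCre libraries and 9, 6 and 19 in Cpt1bcKO libraries. The response element and the TATA box of the Fgf21 promoter printed above therefore lay outside any peak of the table. A gene without a peak was not measured, and its level of the mark may lie below what the peak caller accepts.

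Atf4, the central transcription factor of the response, is controlled mainly at the level of translation. Its peak, chr15:80254390-80257834, had 293, 239 and 316 in CtrlCre libraries and 323, 344 and 302 in Cpt1bcKO libraries. The genotypes overlapped, with CtrlCre replicate 2 below the other 5 libraries. The log2 difference was 0.20 (SE 0.11), and 0.084 when that library, the shallowest, was left out. Per kb, Atf4 had the highest mean level of the 9 genes in CtrlCre CMs, 82.1 ± 11, at the 72.1st percentile of tested peaks.

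Atf5, a relative of Atf4 that is linked to the unfolded protein response of mitochondria, had 127, 142 and 122 in CtrlCre libraries and 153, 136 and 164 in Cpt1bcKO libraries. The genotypes overlapped through CtrlCre replicate 2 and Cpt1bcKO replicate 2, and the log2 difference was 0.21 (SE 0.12). The peak, chr7:44815355-44817991, also held starts of Nup62, a nuclear pore gene, and of Il4i1, which run in the opposite direction, so its reads cannot be given to Atf5 alone.

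Ddit3 encodes CHOP, a transcription factor that acts when stress persists and can lead to cell death. It had 383, 374 and 456 in CtrlCre libraries and 426, 459 and 439 in Cpt1bcKO libraries, with overlapping genotypes and a log2 difference of 0.13 (SE 0.099). At 7874 bases, its peak, chr10:127287406-127295279, was wider than 99.1% of tested peaks, against a median width of 1515 bases. It also covered starts of Mbd6, Gm20492 and Gm4189. Per kb its control level was 51.4, at the 41.3rd percentile, so its high count went with its width.

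Trib3, a pseudokinase that is induced by ATF4 and CHOP and restrains them, had 43, 63 and 54 in CtrlCre libraries and 63, 57 and 56 in Cpt1bcKO libraries. The Cpt1bcKO values fell within the spread of CtrlCre apart from a tie at its top, and the log2 difference was 0.15 (SE 0.20). Its peak, chr2:152343345-152344629, held all 3 annotated starts of the gene. Without CtrlCre replicate 1, the lowest library, the difference was 0.0063.

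Among the 4 enzymes, Asns had the largest difference and the least even one. Asns, which makes asparagine and is the standard target gene of ATF4, had 25, 28 and 29 in CtrlCre libraries and 26, 44 and 58 in Cpt1bcKO libraries. Cpt1bcKO replicate 1 lay at the control level and the other 2 libraries above all controls. The means were 27.3 ± 2.1 and 42.7 ± 16 (SD, n = 3 each), with a log2 difference of 0.55 (SE 0.29) that became 0.87 without Cpt1bcKO replicate 1 and 0.30 without Cpt1bcKO replicate 3. The peak, chr6:7692507-7693324, contains the element printed above and was covered by only 12 to 81 reads per library.

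Mthfd2, a mitochondrial enzyme of the folate cycle that is low in most adult tissues, had 42, 70 and 36 in CtrlCre libraries and 53, 66 and 75 in Cpt1bcKO libraries. The overlap came from CtrlCre replicate 2, without which the log2 difference moved from 0.43 (SE 0.23) to 0.71. Its peak, chr6:83316981-83317625, was short at 645 bases, and per kb it had the highest mean of the 9 genes in Cpt1bcKO CMs, 100 ± 17, next to Atf4 with 93.8 ± 6.1.

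Psat1 and Phgdh encode enzymes of serine synthesis, and in both the genotypes overlapped. Psat1 had 56, 72 and 69 in CtrlCre libraries and 62, 64 and 56 in Cpt1bcKO libraries at chr19:15923708-15925457, with a log2 difference of -0.11 (SE 0.18), the single negative value of the 9. Phgdh had 14, 16 and 23 in CtrlCre libraries and 21, 16 and 19 in Cpt1bcKO libraries at chr3:98338814-98339709. Its log2 difference was 0.097 (SE 0.37), which turned to -0.047 without CtrlCre replicate 1, and its 95% interval of -0.66 to 0.86 leaves the direction undetermined at 7 to 27 reads per library. Like that of Gdf15, the Phgdh peak held no start of its gene and began 281 bases downstream of the start of the gene.

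**Figure D2:**
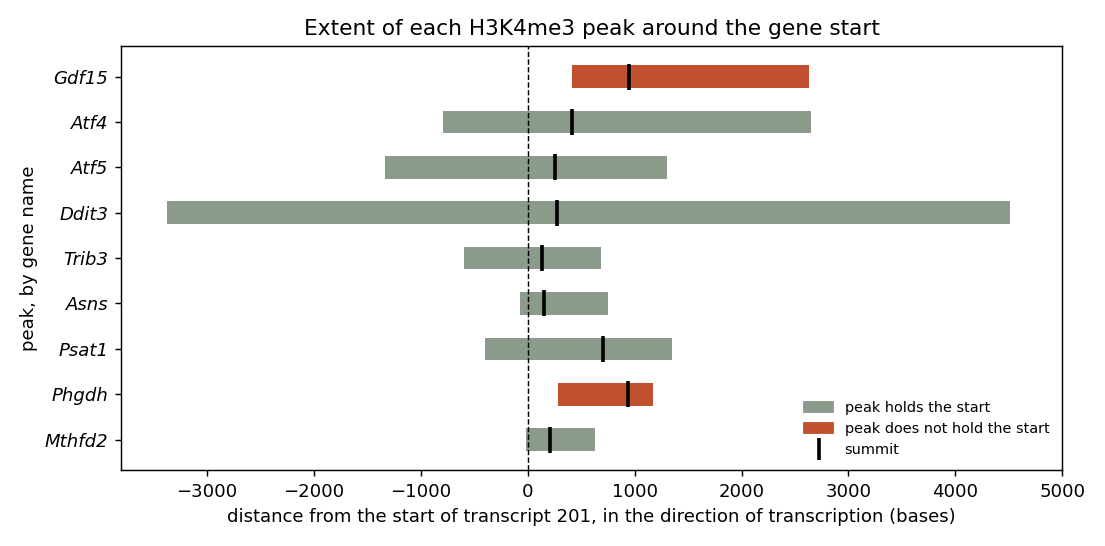
Extent of each of the 9 peaks along the direction of transcription, with the distance in bases from the start of the transcript numbered first in the annotation (dashed line) and the summit as a black mark. The Gdf15 and Phgdh peaks begin 414 and 281 bases downstream of the start, the other 7 peaks span it, and the Ddit3 peak is the widest.

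In the fit across all tested peaks, 1 of the 9 peaks, that of Gdf15, was higher in Cpt1bcKO at an adjusted p under 0.05 and none was lower. Of all 15039 tested peaks, 1.11% were higher and 1.82% lower by the same rule. Gdf15 was also the only one of the 9 in which all Cpt1bcKO libraries lay above all CtrlCre libraries, against 7.80% of all tested peaks. Because the genes were chosen with these values known, nothing is read from either count. The log2 difference was positive in 8 peaks and negative in 1, with a median of 0.20, or 0.17 without Gdf15, beside 0.0057 over all tested peaks.

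In CtrlCre CMs the order of the mean levels per kb was Atf4, Mthfd2, Ddit3, Atf5, Trib3, Psat1, Asns, Phgdh and Gdf15. Each gene overlapped with the next in this order except Asns, whose lowest library (30.6 per kb) was above the highest of Phgdh (25.7). In Cpt1bcKO CMs the order was Mthfd2, Atf4, Gdf15, Atf5, Ddit3, Asns, Trib3, Psat1 and Phgdh. There Atf4 stood apart from Gdf15, with 87.7 per kb or more against 70.8 or less. Gdf15 overlapped with Atf5, which reached 62.2 per kb where the lowest Gdf15 library had 60.9. Trib3, Psat1 and Phgdh did not overlap with each other. The peaks ran from 645 bases in Mthfd2 to 7874 in Ddit3, and those of Atf5 and Ddit3 also held starts of other genes. Both orders are therefore orders of called peaks, and the part of peak width in them was not tested.

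**Figure D3:**
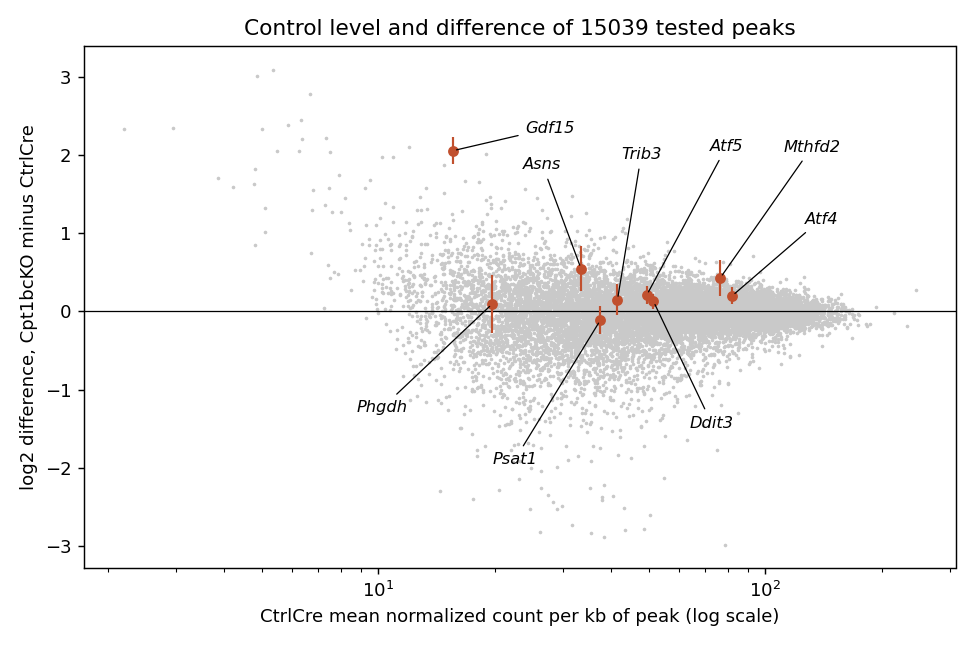
Mean CtrlCre level per kb of peak (log scale) and log2 difference between genotypes for the 15039 tested peaks (grey), with the 9 named peaks in red and bars of 1 SE. Gdf15 lies at 15.6 per kb and 2.06, far from the other 8, which lie between -0.11 and 0.55.

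Gene groups around the response were described through 8 lists with 119 further genes, of which 103 had 106 tested peaks. Of these 106 peaks, 1 was higher in Cpt1bcKO at an adjusted p under 0.05 and 0 were lower (0.943% in all, against 2.93% of all tested peaks called in either direction). At an unadjusted p under 0.05 there were 12 peaks (11.3%, against 12.8%). In 11 peaks all Cpt1bcKO libraries lay above all CtrlCre libraries (10.4%, against 7.80%), and in 3 all lay below (2.83%, against 8.46%). The log2 difference was positive in 69 peaks (65.1%, against 51.2% of all tested peaks), with a median of 0.05. The lists were chosen with earlier results known, and these shares are given as descriptions. With 6 to 21 peaks in a list, nothing is read from the counts of single lists below.

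The peak that passed was that of Hspd1, a mitochondrial chaperonin, in the list of mitochondrial chaperones and proteases. It had 294, 281 and 310 in CtrlCre libraries and 392, 383 and 355 in Cpt1bcKO libraries, a log2 difference of 0.35 (SE 0.094, adjusted p = 0.0409 with limma and Benjamini–Hochberg adjustment over all tested peaks). The genotypes did not overlap. The call was lost without any 1 of the 6 libraries, with all libraries set to the same median and with a replicate block. The partner chaperonin Hspe1 starts in the same region and has no peak of its own name. Of the other peaks of this list, Dnaja3 was at 0.21 (SE 0.10), and the proteases Clpp at -0.0056 (SE 0.10) and Clpx at -0.025 (SE 0.10).

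Genes of eIF2 phosphorylation and its control had 12 peaks. Of these, 8 were positive, against 51.2% of all tested peaks, and none passed, against 2.93%. Ppp1r15b, a subunit that brings a phosphatase to eIF2, had 378, 379 and 386 in CtrlCre libraries and 442, 510 and 434 in Cpt1bcKO libraries. With a log2 difference of 0.27 (SE 0.096) and no overlap, it missed the threshold at an adjusted p of 0.162 in limma. Eif2b2, part of the exchange factor of eIF2, was at 0.29 (SE 0.12) and also did not overlap. The lowest values were those of Oma1, the mitochondrial protease that relays stress to the eIF2 kinases, at -0.16 (SE 0.15) and of the adaptor Nck1 at -0.15 (SE 0.098).

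Among other transcription factors of the response, 7 of 9 peaks were positive, against 51.2% of all tested peaks. None passed, against 2.93%. Jdp2 was at 0.23 (SE 0.14) and Jun at 0.18 (SE 0.10), while Cebpa was at -0.24 (SE 0.12) and Trib2 at -0.19 (SE 0.096). Trib2 was the single peak of this list in which all Cpt1bcKO libraries lay below CtrlCre, against 8.46% of all tested peaks. It had 480, 528 and 470 in Cpt1bcKO libraries and 556, 584 and 548 in CtrlCre libraries. Atf3, itself a classical target of ATF4, and Nupr1 had no tested peak of their name.

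Transporters and stress targets of ATF4 had 20 peaks, 13 positive and 7 negative, where 51.2% of all tested peaks were positive. None passed, against 2.93%. The amino acid transporter Slc7a5 was at 0.36 (SE 0.17), from 59, 72 and 84 in CtrlCre libraries to 105, 82 and 89 in Cpt1bcKO libraries, which overlapped. Slc7a1, which carries cationic amino acids, was at 0.23 (SE 0.13). The lowest values came from the low peaks of Cbs, an enzyme of the route from homocysteine to cysteine, at -0.46 (SE 0.39) and of Pck2, the mitochondrial PEP carboxykinase, at -0.35 (SE 0.34).

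The enzymes of serine, glycine, proline and one-carbon metabolism spread most widely, from -0.50 to 0.64. They had 8 positive and 6 negative peaks, where 51.2% of all tested peaks were positive. None passed, against 2.93%. Shmt1, which moves a one-carbon unit from serine to folate in the cytosol, had 41, 42 and 40 in CtrlCre libraries and 50, 76 and 70 in Cpt1bcKO libraries. At a log2 difference of 0.64 (SE 0.21) its genotypes did not overlap, and its adjusted p in limma was 0.124. Aldh18a1, the first enzyme of proline synthesis, was at 0.44 (SE 0.16) with overlap. Aldh1l2, the mitochondrial enzyme that oxidizes formyl folate, went the other way with 66, 91 and 63 against 58, 45 and 50, a log2 difference of -0.50 (SE 0.19) and an adjusted p of 0.228 in limma, and Gldc of the glycine cleavage system was at -0.14 (SE 0.41).

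The aminoacyl-tRNA synthetases, which load amino acids onto tRNAs, had 21 peaks in 20 genes. Of these peaks, 17 were positive, against 51.2% of all tested peaks, with a median of 0.06. None passed, against 2.93%. In the lists of transcription factors and of mitochondrial chaperones and proteases, 7 of 9 peaks each were positive. The median of the mitochondrial list was higher, at 0.098. Nars had 184, 174 and 165 in CtrlCre libraries and 239, 229 and 192 in Cpt1bcKO libraries, which did not overlap, at a log2 difference of 0.33 (SE 0.11). Lars was at 0.30 (SE 0.12), also without overlap. The tRNA exporter Xpot, listed with them, was at -0.15 (SE 0.12) and Farsb at -0.07 (SE 0.099).

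Genes of the unfolded protein response of the endoplasmic reticulum had 15 peaks, of which 6 were positive, with a median of -0.013. None passed, against 2.93% of all tested peaks. In none of them did the genotypes lie apart, against 7.80% of all tested peaks with Cpt1bcKO above and 8.46% with it below. With 15 peaks nothing is read from these counts. The stress sensor Ern1 was at 0.28 (SE 0.15) and the chaperone Hspa5 at 0.077 (SE 0.11), and Pdia6 and Calr were at -0.13 (SE 0.13) and -0.089 (SE 0.10). Receptors of GDF15 and FGF21 had 6 peaks in 5 genes, with Ret at 0.39 (SE 0.28), Fgfr3 at 0.37 (SE 0.18) and Fgfr4 at -0.34 (SE 0.46). The peaks of Fgfr1 were at -0.26 (SE 0.30) and -0.068. Gfral, the GDF15 receptor of the brainstem, and Klb, the co-receptor of FGF21, had no tested peak.

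**Figure D4:**
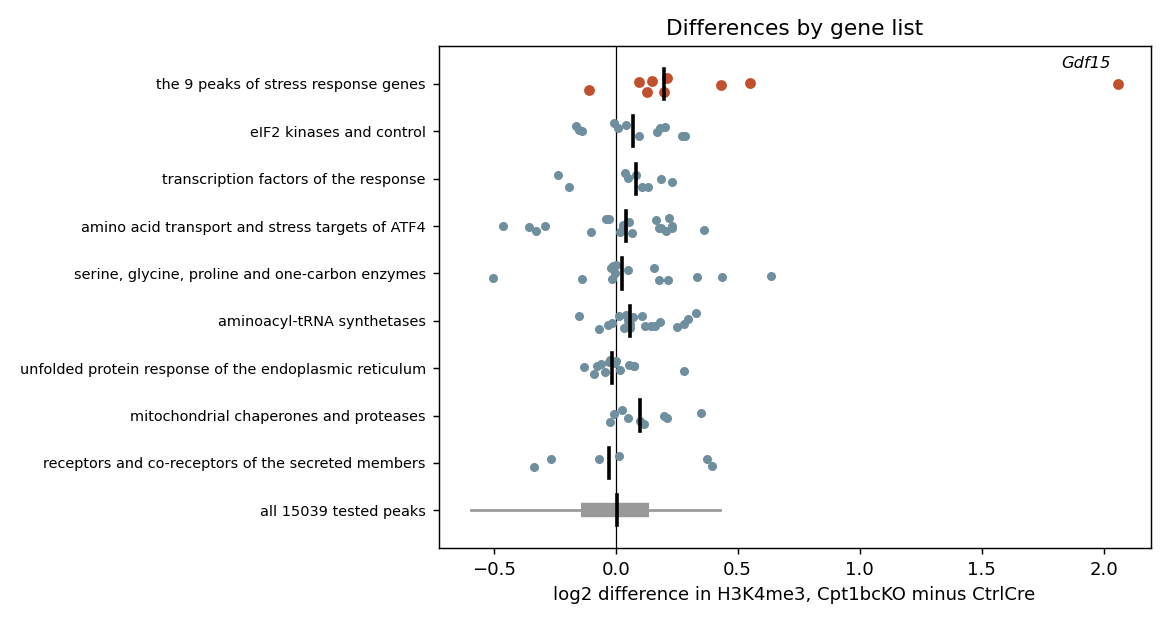
Log2 difference between Cpt1bcKO and CtrlCre of each peak, by gene list, with the median of each list as a black line, and at the bottom the range from the 5th to the 95th percentile of all 15039 tested peaks with a thick bar from the 25th to the 75th. Gdf15 stands at 2.06, while the 106 peaks of the 8 lists lie between -0.50 and 0.64.

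Peaks next to other genes of the response were also read. Mars, a tRNA synthetase gene next to Ddit3, had 153, 114 and 147 in CtrlCre libraries and 158, 162 and 147 in Cpt1bcKO libraries, with overlap and a log2 difference of 0.18 (SE 0.12). Rbck1, next to Trib3, had 120, 137 and 137 against 105, 116 and 104, a log2 difference of -0.27 (SE 0.12) without overlap. Neither was called. These peaks were chosen after their values were seen.

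The peaks whose pattern over the 6 libraries was most like that of Gdf15 were sought among 9326 named peaks with a mean of at least 50. The highest Pearson correlations were those of Gys1 (glycogen synthase of muscle, r = 0.996), Cidea (a lipid droplet protein, 0.991), the nucleolar helicase gene Ddx21 (0.988), Heatr1 (ribosome synthesis, 0.988) and Spsb3 (0.987). All 5 had a positive log2 difference, from 0.19 (SE 0.095) for Gys1 to 0.32 (SE 0.098) for Spsb3, much smaller than that of Gdf15. Of the other genes of the response, Atf5 had an r of 0.68, Atf4 and Ddit3 of 0.63, Mthfd2 of 0.52, Trib3 of 0.50 and Psat1 of -0.28. These correlations rest on 6 libraries and follow mainly the step between genotypes, so they are descriptions.

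The libraries held 763133 to 2766416 reads in peaks, a 3.63-fold range, with CtrlCre replicate 2 the shallowest. The peak over the start of Cpt1b ended 455 bases short of the floxed exons, so it cannot check the genotype labels. It rose in Cpt1bcKO, from 428, 407 and 436 to 572, 689 and 568 (log2 difference 0.52, SE 0.10, adjusted p = 0.00357 with limma), and it also covers the start of Chkb. All 10 CM markers examined had peaks, with summed values of 7770 to 9427 in CtrlCre and 5938 to 8538 in Cpt1bcKO libraries. Of these 11 peaks, 9 were lower in Cpt1bcKO, while 51.2% of all tested peaks had a positive difference. None was called, against 2.93% of all tested peaks. At an unadjusted p under 0.05 in limma there were 4, against 12.8% of all tested peaks. In each of the 11 peaks Cpt1bcKO replicate 3 was the lowest of the 6 libraries. A short further peak of Tnnt2 was at -1.30 (SE 0.39) without overlap. Of the markers of other cells, 1 of 6 for fibroblasts (Pdgfra), 1 of 5 for endothelium (Kdr), 3 of 5 for mural cells (Acta2, Kcnj8, Myh11), 0 of 5 for leukocytes and 0 of 3 for Schwann cells had a tested peak. Acta2, smooth muscle actin and also a gene of immature CMs, fell by 2.23 on the log2 scale (SE 0.30, adjusted p = 7.36e-05 with limma). The summed mural markers ran from 121 to 177 in CtrlCre and from 36 to 84 in Cpt1bcKO libraries, and Acta2 carried this difference. Kcnj8 was at -0.0055 (SE 0.36) and Myh11 at -0.72 (SE 0.44), neither called, and without Acta2 the sums of 36 to 58 and 26 to 60 overlapped. Their part in the Gdf15 value was not tested.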

How the data were processed

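H3K4me3 ChIP–seq libraries of sorted adult CM nuclei were compared between 3 CtrlCre and 3 Cpt1bcKO samples, grouped and numbered by their titles. Input libraries have no column in the table and were not analysed here. Per the submitters' processing notes and the study's methods, the authors trimmed reads (Trimmomatic 0.39), aligned them to mm10 (STAR 2.6.1d, unique and unspliced), removed duplicates (Picard 2.21.7), called peaks against input with MUSIC, merged the peaks of all libraries, counted reads in them and divided by DESeq2 1.26.0 size factors. The deposited values are these normalized counts rounded by the authors and were handled as a score. The mean signal of each genotype that the authors deposited served to recover whole reads. Size factors hide any change shared by all peaks. Gene names were given by the authors from promoters up to 5000 bases away. The deposited fraction of each peak inside a gene entered no test. The authors' own DESeq2 comparison (log2 ratio, p-value, adjusted p-value) was not used.

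Whole reads were recovered by a search for counts that match each rounded value and also the unrounded genotype means, with a single solution for all 15848 peaks. These whole counts are called reads here. Counting error takes each of them as 1 sequenced read, which was not tested. Differences came from limma 3.58.1 in R 4.3.3 (lmFit and eBayes with a trend, genotype alone, two-sided) on log2(value + 1). Peaks with a mean of at least 10 were tested, 15039 in all with 809 left out, and adjusted by Benjamini–Hochberg over all of them. At the median peak, counting error was 15.6% in CtrlCre replicate 2 and 8.36% to 10.9% in the other libraries, and 3 reads correspond to values of 1.95 to 6.97, for counting error only. Gene positions came from GENCODE vM21 on the same build, and promoters from RefSeq. Peak widths run from the first to the last listed base.

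The 10 genes, the lists and the tests were chosen with earlier results of these data known. The genes named were all 10, the pathway genes with an adjusted p under 0.05, the 2 highest and 2 lowest of each list, and the 5 peaks most correlated with Gdf15. Cell markers, some neighbouring peaks and Cpt1b were added, and the other neighbouring peaks are not reported here. Alternatives were another scaling (a common median, quantile normalization), a pseudocount of 5, no filter or a mean of at least 50, a replicate block, limma-voom on the recovered reads, and leaving out each library.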

Additional observations from a re-analysis of the deposited data

How the results depend on the processing

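The log2 difference of Gdf15 ran from 1.94 to 2.17 over 13 alternatives, a description, since the gene was selected on these libraries. Phgdh alone changed sign, to -0.047 without CtrlCre replicate 1, and Asns and Phgdh were not tested at a mean of at least 50. The count of calls among the 106 pathway peaks, 1 (Hspd1), was 0 with a common median, 2 (Ddit4 and Hspd1) with quantile normalization and 0 with the replicate block. Leaving out 1 library gave 0 to 1, where the 1, without CtrlCre replicate 2, was Aldh18a1. Over all peaks, 441 calls became 229 to 431 when 1 library was left out, with 229 without CtrlCre replicate 1, 246 without Cpt1bcKO replicate 3 and 288 without Cpt1bcKO replicate 2, and 338 to 503 under the other settings. The labels do not say whether the replicate numbers pair the samples. The deviations of same-numbered libraries from their genotype means correlated at 0.076, -0.081 and 0.11, so little shared deviation was seen. This cannot decide whether such libraries were paired. The replicate block gave 370 calls over all peaks. Causes were not tested. Depth limits Phgdh, Asns and the control level of Gdf15 most, with 7, 12 and 15 reads in their lowest libraries.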

Other observations

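Letters of stress elements were also counted before the starts of the pathway genes. TGATGNAAN was present in the 250 bases before the start in 13 RefSeq promoters of pathway genes (12.9% of the promoters of 91 genes), against 3.44% of all promoters. These included the tRNA synthetase genes Aars, Gars and Tars, with log2 differences in H3K4me3 of 0.14 (SE 0.12), 0.04 (SE 0.11) and 0.06 (SE 0.11), and Vldlr at 0.21 (SE 0.11). Got1, Herpud1, Jdp2 and Pycr1 were positive as well. Negative values came from Pck2 at -0.35 (SE 0.34), Slc7a11 at -0.29 (SE 0.46) and Chac1 at -0.03 (SE 0.16). Atf3 and Nupr1 also held a match and had no peak under their name. The endoplasmic reticulum stress element, searched on both strands as CCAAT and CCACG with 9 bases between them, was present in 7 promoters of the pathway genes (6.93%), against 0.113% of all promoters, and before none of the 10 stress response genes. All 7 belonged to genes in the list of the unfolded protein response, among them Hspa5 at 0.08 (SE 0.11), Dnajc3 at -0.07 (SE 0.11) and Syvn1 at 0.07 (SE 0.11). None of these named genes passed the test, and the matches are descriptions of sequence. The lists were drawn up from genes known for these responses, so a higher share than over all promoters is not a finding of these data.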
